A study of Mus musculus with 3 samples.

Results

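The genes described are the vascular endothelial growth factor (VEGF) ligands Vegfa, Vegfb, Vegfc, Vegfd and Pgf, the receptor tyrosine kinases Flt4, Kdr and Flt1, and the neuropilin co-receptors Nrp1 and Nrp2. They were chosen by name, as every probe set that the platform annotation gives to one of these 10 genes, with Vegfd matched under its former symbol Figf as well. This gave 25 probe sets of the 45037 on the array that are not controls, 15 for receptors and neuropilins and 10 for ligands. They were read in immortalized mouse lymphatic endothelial cells (imLECs), sorted from the skin of H-2Kb-tsA58 mice (ImmortoMice), whose transgene encodes a temperature-sensitive large T antigen of SV40 under an interferon-inducible H-2Kb promoter. There is 1 group, with 1 culture and 1 array at each of passages 13, 14 and 18. By the growth protocol all cultures were grown at 33 °C with interferon-gamma, heparin and a bovine endothelial mitogen, then kept for 3 days at 37 °C without interferon-gamma so that T antigen is degraded. No untreated or primary cells were analysed here, and the labels do not say how many mice the cells came from.

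VEGF ligands are secreted dimers that bring receptor tyrosine kinases together on endothelial cells. VEGF-A binds Flt1 (VEGFR-1) and Kdr (VEGFR-2), and VEGF-B and placental growth factor (Pgf) bind Flt1. VEGF-C and VEGF-D bind Flt4 (VEGFR-3), and VEGF-C, once cleaved, also binds Kdr. Neuropilins hold ligands next to these kinases, Nrp1 mainly in blood vessels and Nrp2 mainly in veins and lymphatics. In lymphatic endothelium VEGF-C acting on Flt4 is the best known signal for sprouting and survival.

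Values are the deposited signal intensities, on a linear scale, or their log2. The 95th percentile of 42 genes restricted to other tissues served as the floor of an array and came to 49.2, 51.3 and 67.9 intensity units at passages 13, 14 and 18. A probe set above the floor on all 3 arrays is called detected, and a value below it gives only an upper limit. Of the 25 probe sets 13 were detected, beside 35.8% of all probe sets, and they belong to 6 of the 10 genes. By the brightest probe set of each gene, 6 of the 10 genes were detected, beside 8646 of 18193 genes on the array. Each of the 5 receptor and neuropilin genes had a detected probe set (11 of 15 probe sets), whereas among the 5 ligand genes only Vegfc did (2 of 10). Probe sets differ in how well they hybridise, so the level of one gene is not set against that of another. In bulk RNA, fewer cells expressing a gene and less of its RNA per cell cannot be told apart.

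The promoter strand of 4 genes is shown because Flt4 and its co-receptor gene Nrp2 both had their lowest values at passage 18, and because Vegfc and Vegfd encode the ligands of Flt4 and differed in detection. Each run is the 250 bases before the annotated start from RefSeq, build GRCm38.p6, 5′ to 3′ on the gene's strand, at chr11:49609429-49609678 for Flt4, chr1:62703067-62703316 for Nrp2, chr8:54077282-54077531 for Vegfc and chrX:164373272-164373521 for Vegfd, all on the plus strand. Capitals mark GGAA or its reverse complement, the core letters read by ETS transcription factors, searched on both strands with any overlap with other motifs allowed.
Flt4: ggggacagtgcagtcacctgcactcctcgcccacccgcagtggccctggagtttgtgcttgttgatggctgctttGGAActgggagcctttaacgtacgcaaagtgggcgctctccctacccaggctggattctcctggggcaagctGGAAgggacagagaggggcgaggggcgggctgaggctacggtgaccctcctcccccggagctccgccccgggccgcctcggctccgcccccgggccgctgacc
Nrp2: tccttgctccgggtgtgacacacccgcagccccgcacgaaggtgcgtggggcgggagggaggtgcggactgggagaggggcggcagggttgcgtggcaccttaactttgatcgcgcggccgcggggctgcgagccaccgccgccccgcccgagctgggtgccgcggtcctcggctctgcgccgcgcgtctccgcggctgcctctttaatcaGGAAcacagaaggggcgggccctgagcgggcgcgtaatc
Vegfc: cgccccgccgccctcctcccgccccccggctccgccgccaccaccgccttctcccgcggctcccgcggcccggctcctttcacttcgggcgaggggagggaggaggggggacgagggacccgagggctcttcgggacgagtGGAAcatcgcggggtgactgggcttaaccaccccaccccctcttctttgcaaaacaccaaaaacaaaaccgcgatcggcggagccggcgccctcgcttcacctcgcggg
Vegfd: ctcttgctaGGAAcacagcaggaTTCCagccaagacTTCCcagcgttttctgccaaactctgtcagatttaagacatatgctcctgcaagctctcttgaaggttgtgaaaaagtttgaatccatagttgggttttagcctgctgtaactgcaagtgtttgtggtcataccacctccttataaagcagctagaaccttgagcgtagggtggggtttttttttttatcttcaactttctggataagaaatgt

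The core GGAA occurred at 2 places before Flt4, 1 before Nrp2, 1 before Vegfc and 3 before Vegfd. At least 1 match is held by 93.4% of the 32851 promoters of this length, and at least 3 by 54.7%. The GC box GGGCGG, searched on both strands, occurred at 3, 5 and 2 places before Flt4, Nrp2 and Vegfc and at 0 before Vegfd, beside 32.7% of all promoters with a match. The 3 promoters with GC boxes held 68.4%, 72.4% and 71.6% G and C and had 16, 32 and 30 CpG dinucleotides, and the Vegfd promoter held 42.4% and had 2. The median over all promoters was 52.4% and 6. By base composition the promoters of the paralogous ligand genes Vegfc and Vegfd were thus unlike each other. Those of Flt4 and Nrp2 were both rich in CpG, which did not set them apart. The same length before Kdr, Flt1, Nrp1 and Vegfb had 16, 23, 11 and 26 CpG dinucleotides. Before the starts given for Vegfa there were 11 and 7, and before those for Pgf 20 and 7. The runs before Kdr, Flt1, Nrp1 and Pgf, and that with 7 before Vegfa, lie within the annotated span of the gene.

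Flt4, the VEGF-C and VEGF-D receptor that marks lymphatic endothelium, was detected by both of its probe sets and was lowest at passage 18. The brighter one, 1421442_at, read 2039 at passage 13, 1869 at passage 14 and 919.7 at passage 18. The other, 1444052_at, read 819.8, 573.5 and 388.4. Both gave the order of passage 13, then 14, then 18. Their log2 means were 10.57 ± 0.63 and 9.15 ± 0.54 (SD, n = 3). At passage 18 the level was 2.22-fold lower than at passage 13 by 1421442_at and 2.11-fold lower by 1444052_at. Of all detected probe sets, 0.943% and 1.18% had as low a difference for this pair. Between passages 14 and 13 the log2 difference of the brighter probe set was -0.13, which 36.8% of detected probe sets matched or exceeded in that direction.

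Nrp2, the co-receptor that binds VEGF-C together with Flt4, was likewise lowest at passage 18 by each of its 3 detected probe sets. Probe set 1426528_at read 1067, 882.5 and 564.1 at passages 13, 14 and 18. Probe set 1435349_at read 649.8, 815.9 and 310.8, and 1456778_at read 226.9, 205.0 and 116.3. The passage 18 value was lower than that of passage 13 by 1.89-fold, 2.09-fold and 1.95-fold in the same order of probe sets. They disagreed on the other pair, since 1435349_at was higher at passage 14 than at 13 (log2 difference 0.33) and the other 2 were lower (-0.27 and -0.15). The fourth probe set, 1447343_at, was below the floor on all arrays, at 12.27, 17.94 and 10.14.

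Kdr, the main signalling receptor for VEGF-A, has a single probe set here, 1449379_at, and was highest at passage 14. It read 766.6 at passage 13, 1655 at passage 14 and 626.9 at passage 18, with a log2 mean of 9.86 ± 0.74 (SD, n = 3). The passage 14 culture stood apart, 2.16-fold above passage 13, and the passage 18 culture was 2.64-fold below passage 14. Passages 18 and 13 lay closer, with a log2 difference of -0.29 that 21.5% of detected probe sets matched or exceeded in that direction.

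Flt1, which binds VEGF-A tightly and signals weakly, and whose gene also gives a soluble form that traps ligand, had the same high value at passage 14. Probe set 1454037_a_at read 109.0, 230.1 and 81.42 at passages 13, 14 and 18, and 1451756_at read 66.60, 227.6 and 86.55. These 2 were detected, and they were 2.11-fold and 3.42-fold higher at passage 14 than at 13. Their order of passages 18 and 13 differed, with log2 differences of -0.42 and 0.38. Another probe set, 1440926_at, read 92.88, 163.5 and 65.39, the last just below the floor, which makes passage 14 at least 2.41-fold higher than passage 18. The fourth, 1419300_at, was above the floor at passage 14 alone, at 63.09, against 24.07 at passage 13 and 32.34 at passage 18. Both detected probe sets were thus highest at passage 14, as Kdr was, beside 37.0% of all detected probe sets.

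Nrp1, the co-receptor for VEGF-A and for class 3 semaphorins, ran the other way from Nrp2, with its highest value at passage 18 and its lowest at passage 14. Probe set 1418084_at read 1142, 664.3 and 2348 at passages 13, 14 and 18. Probe set 1448944_at read 716.3, 476.5 and 1844, and 1448943_at read 472.2, 325.8 and 1326. All 3 gave the same order, and their log2 SDs were 0.91, 1.00 and 1.05 (n = 3). At passage 18 they were 2.06-fold, 2.57-fold and 2.81-fold higher than at passage 13, and 3.53-fold, 3.87-fold and 4.07-fold higher than at passage 14. Of all detected probe sets, 1.74%, 0.738% and 0.515% had as high a difference between passages 18 and 13. The fourth, 1457198_at, stayed below the floor at 14.69, 15.90 and 38.62.

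Vegfc, the lymphangiogenic ligand, was the one ligand detected in these cells. Probe set 1439766_x_at read 365.1, 228.8 and 396.4 at passages 13, 14 and 18, and 1419417_at read 113.3, 68.27 and 109.8. The third, 1440739_at, was below the floor on all arrays, at 44.92, 20.30 and 48.39. Both detected probe sets were lowest at passage 14, by a log2 difference from passage 13 of -0.67 and -0.73, a size in that direction that 6.60% and 5.56% of detected probe sets reached. Passages 18 and 13 were close to each other, at log2 differences of 0.12 and -0.05. The suffix of 1439766_x_at marks it as open to cross-hybridisation.

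Vegfd, the other ligand of Flt4, was above the floor at passage 18 alone and in 1 of its 3 probe sets. Probe set 1438954_x_at, also of the kind open to cross-hybridisation, read 25.11, 38.20 and 132.2 at passages 13, 14 and 18. With the floor in place of the dim values, passage 18 was at least 2.68-fold above passage 13 and at least 2.58-fold above passage 14. Probe sets 1438953_at (15.57, 17.05 and 63.62) and 1449528_at (18.27, 19.54 and 35.65) were below the floor on all arrays.

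None of the remaining ligands was above the floor on all 3 arrays. Vegfa, the principal ligand of blood vessel growth, was below it on all arrays, at 40.02, 33.69 and 50.41 by 1451959_a_at and at 13.44, 15.23 and 33.45 by 1420909_at. Vegfb, a ligand of Flt1, read 52.98, 94.27 and 45.15 by 1451803_a_at, so it was above the floor at passages 13 and 14 only, with passage 14 at least 1.39-fold above passage 18. Pgf, the other Flt1 ligand, read 116.0, 82.27 and 63.14 by 1418471_at, again above the floor at passages 13 and 14, with passage 13 at least 1.71-fold above passage 18. Detection of Vegfb and Pgf turned on the floor: both were detected with the floor at the 90th percentile. Vegfa and Vegfd were not detected at either percentile.

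**Figure D1:**
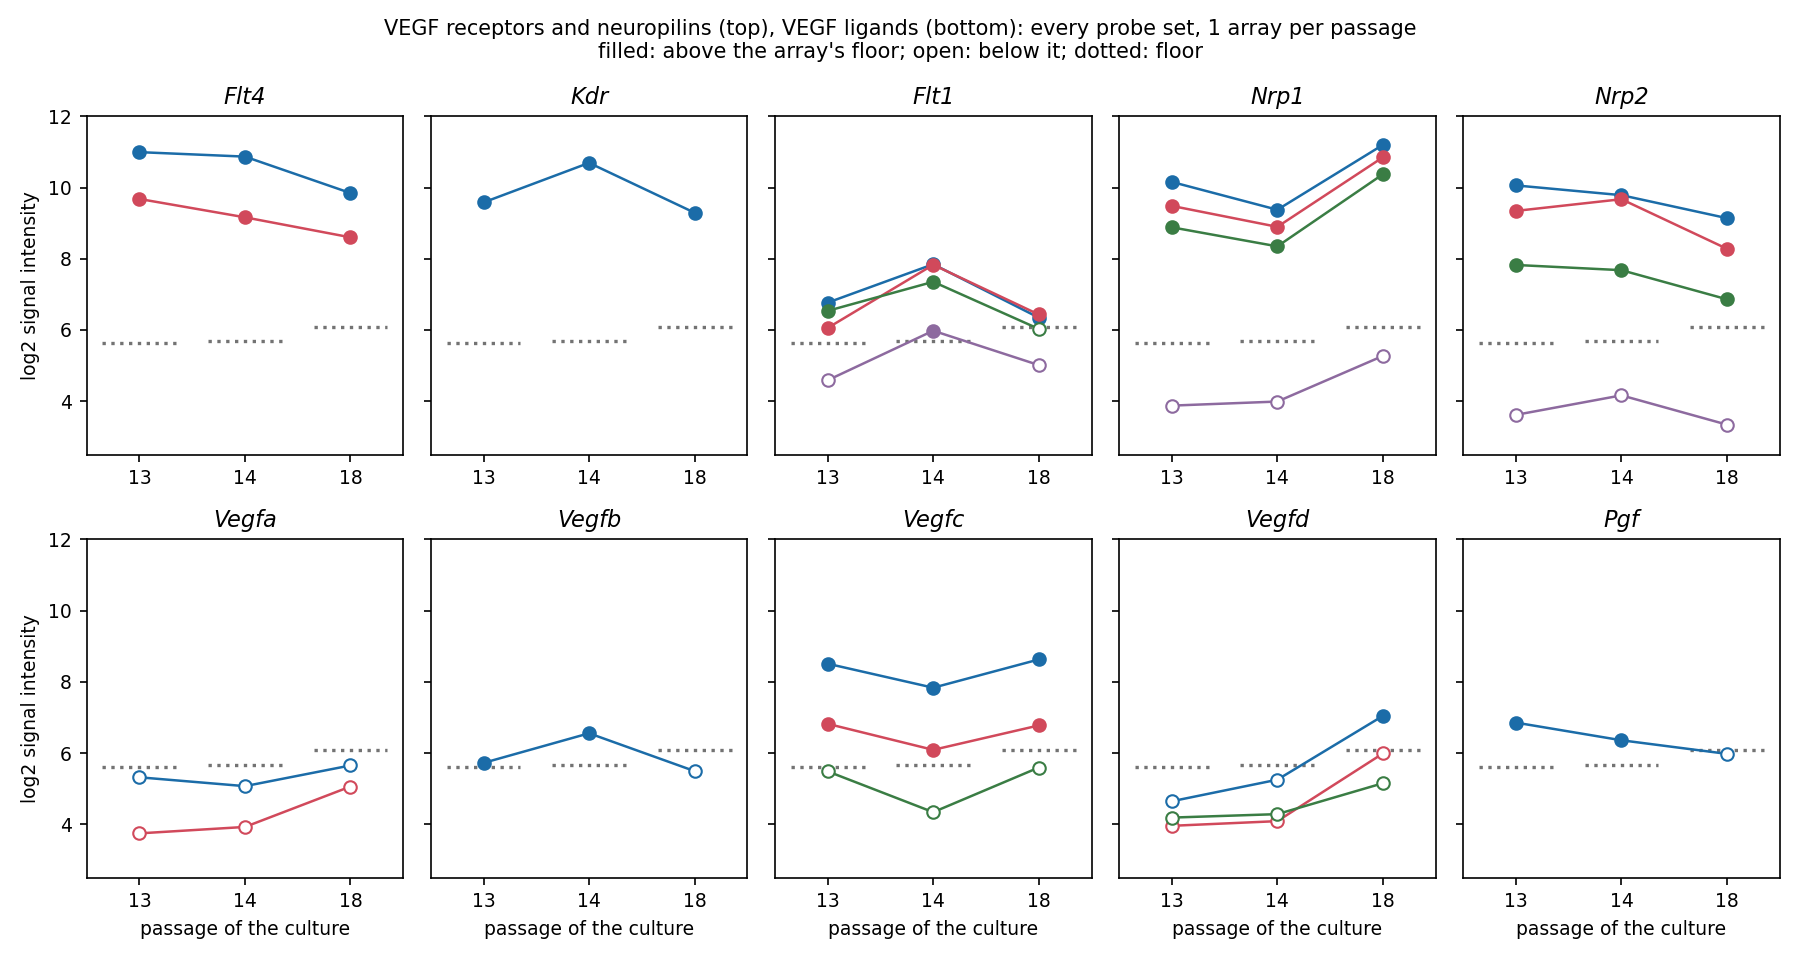
Log2 signal intensity (vertical axis) of each of the 25 probe sets against the passage of the culture (horizontal axis), 1 panel per gene and 1 line per probe set. Each point is 1 array, filled where it is above that array's floor (dotted) and open where it is below. Flt4 and Nrp2 are lowest at passage 18, Kdr and Flt1 are highest at passage 14, Nrp1 is highest at passage 18, and among ligands only Vegfc has lines above the floor on all 3 arrays.

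Among the 13 detected probe sets, differences of at least 2-fold between pairs of cultures were all in receptor and neuropilin genes. Between passages 18 and 13 there were 6, beside 3.6% of the 16126 detected probe sets of the array. The 3 of Nrp1 were higher, beside 2.03%, and both of Flt4 and 1 of Nrp2 were lower, beside 1.56%. Between passages 14 and 13 there were 3, beside 4.25%, namely Kdr and both detected Flt1 probe sets, all higher (1.72%), and 0 were lower (2.54%). Between passages 18 and 14 there were 8, beside 10.2%: the 3 of Nrp1 were higher (5.79%), and 1 of Flt4, Kdr, both of Flt1 and 1 of Nrp2 were lower (4.38%). Probe sets of 1 gene read transcripts of that gene, so these 17 differences are not independent and come from 5 genes. The 3 pairs share cultures, and with 1 culture a passage no difference between 2 passages was tested.

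**Figure D2:**
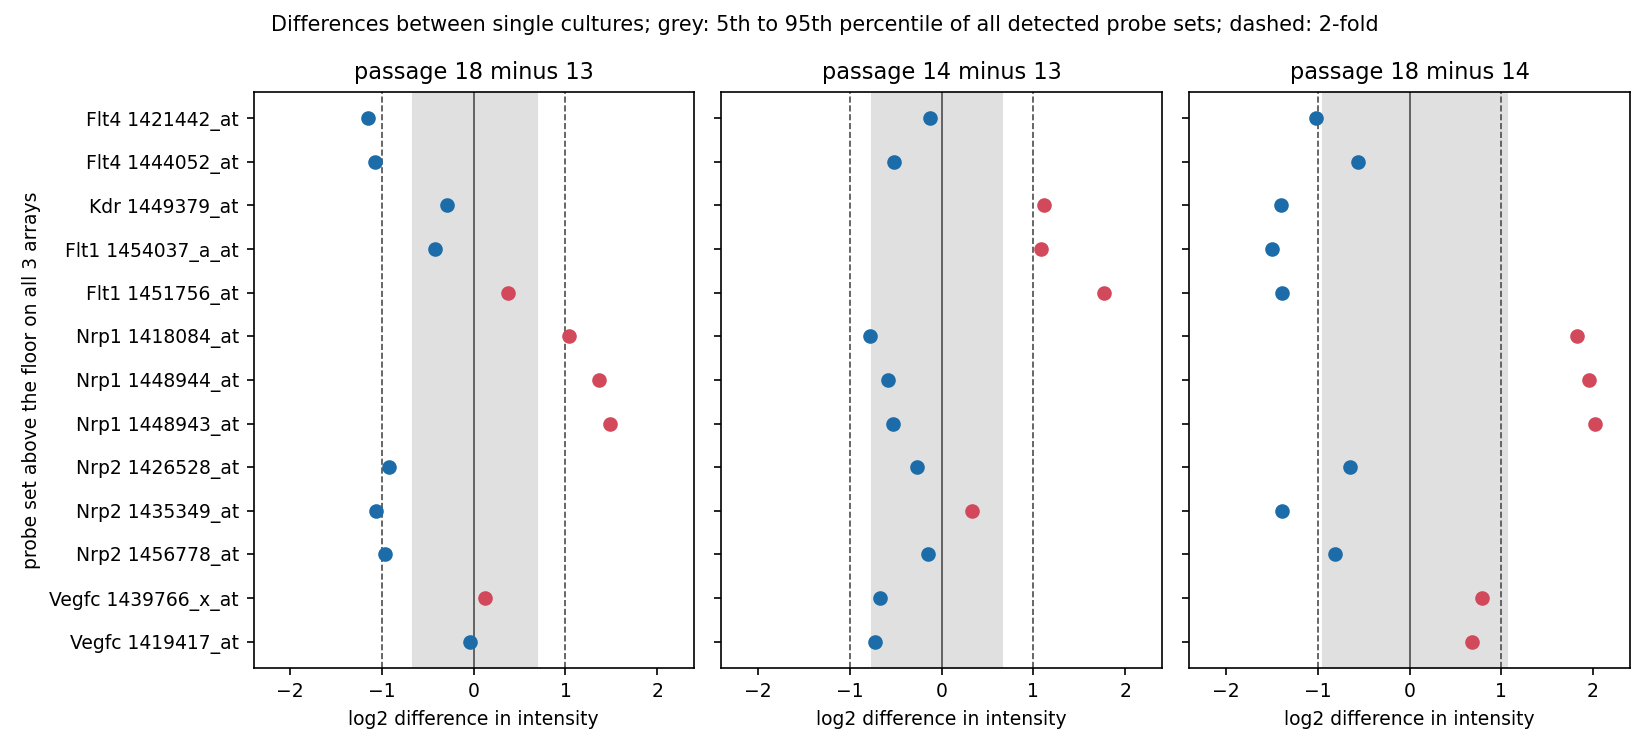
Log2 difference in intensity (horizontal axis) between pairs of cultures for the 13 detected probe sets (vertical axis), red where above 0 and blue where below. The grey band spans the 5th to the 95th percentile of all 16126 detected probe sets and the dashed lines mark 2-fold. All Nrp1 points lie beyond 2-fold for passage 18 minus 13 and for 18 minus 14, and the Vegfc points lie inside 2-fold in every panel.

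The trend with passage number was tested with limma on the 17846 probe sets whose mean lay above the mean floor, 16 of them from the genes described. None was called at an adjusted p under 0.05 (0 of 16, beside 0% of all), and the lowest adjusted p was 0.896. At an unadjusted p under 0.05 there were 7 of the 16, beside 3.89% of all probe sets: both of Flt4, the 3 of Nrp2 and 2 of Nrp1. The slope of Flt4 was -0.24 ± 0.05 log2 units per passage (SE) by 1421442_at and -0.19 ± 0.07 by 1444052_at. For Nrp2 the slopes were between -0.25 and -0.18, and for Nrp1 between 0.28 and 0.36. Over all 16 the median slope was -0.15, with 11 negative and 5 positive. Over all 17846 probe sets tested the median was -0.004, with 9222 negative. The 16 include several probe sets of the same gene, so these counts are not of independent observations. The fit has 1 residual degree of freedom before the spread is shared across probe sets, and the p-values measure only the spread among these 3 cultures.

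The passage 18 array, on which Flt4 and Nrp2 were lowest and Nrp1 highest, had a Gapdh 3'/5' signal ratio of 19.4, against 8.59 at passage 13 and 7.10 at passage 14, a ratio that is higher where RNA or cDNA is less complete. Its Actb ratio was 1.42, against 1.18 and 1.2. The part of RNA quality in the differences of the receptor genes was not tested. Without the passage 18 culture, the slope is the log2 difference between passages 14 and 13. By the brightest probe set it turned its sign for Kdr, Flt1, Nrp1, Vegfb and Vegfc and kept it for Flt4, Nrp2 and Pgf. Nrp2 probe set 1435349_at, with a slope of -0.25 over all cultures, had a log2 difference of 0.33 between passages 14 and 13 and so turned as well.

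The genes whose profile over the 3 cultures was nearest to that of Flt4 were Arhgap6, Zcchc3, Cdc37 and Dusp3, measured as the root mean square difference of log2 values centred on each gene's mean, which was 0.016 to 0.022. Among 8645 detected genes compared, 23 lay within 0.1 of Flt4. Nrp2 ranked 75th at 0.155, whereas Kdr, Flt1 and Vegfc lay at 0.517, 0.495 and 0.760. The nearest to Nrp1 were Ninl, Syt11, Pcx and Gab1, at 0.009 to 0.024, with 27 genes within 0.1, and the nearest of the other genes described was Vegfc at 0.462. With 3 cultures, profiles match easily, and these likenesses describe the arrays only.

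The pathway around the receptors was read from 9 lists of genes, with 1 probe set a gene. Read in this way, 8646 of 18193 genes on the array were detected, the background for the detection counts of the lists. No gene of any list was called in the trend with passage in either direction (lowest adjusted p 0.896 in limma). Of the proteins that mature VEGF-C and VEGF-D, 6 of 9 measured genes were detected. The convertase Furin read 149.2, 184.2 and 196.0 at passages 13, 14 and 18, and the protease gene Plau read 2870, 3573 and 1331. Among the detected genes Plat, the tissue plasminogen activator, had the widest range, at 144.7, 62.46 and 447.3. The convertase gene Pcsk5, below the floor at passage 14, read 80.73, 17.90 and 233.0. Ccbe1 and Adamts3, which together activate VEGF-C, were below the floor on all arrays, at or under 38.80 and 5.38. Besides these, Pcsk7, a convertase, Ctsd, cathepsin D, and Klk1, a kallikrein, were detected.

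Among neuropilin ligands and plexins, 7 of 13 genes were detected. Sema3c, a ligand of both neuropilins, read 190.7, 150.1 and 703.3 at passages 13, 14 and 18, so that passage 18 was 3.69-fold above passage 13. Sema3a, the classical Nrp1 ligand, read 952.2, 853.5 and 593.6, and Plxna1, a semaphorin receptor subunit, 663.8, 463.4 and 1066. Sema3b and Sema3d were below the floor throughout. Sema3c and Plxna1 shared with Nrp1 the lowest value at passage 14 and the highest at passage 18, while Sema3a was lowest at passage 18. Of all detected probe sets, 38.2% were lowest at passage 14, 37.5% highest at passage 18 and 37.6% lowest at passage 18.

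Signalling genes below the receptors were present almost throughout, with 24 of 26 measured genes detected, beside 8646 of 18193 over the array, and mostly small differences. Their median log2 difference was -0.07 for passage 18 minus 13 and -0.07 for 14 minus 13, beside medians of -0.002 and -0.017 over 8646 detected genes. Plcg1, the phospholipase that docks on Kdr, read 1305, 1469 and 1166 at passages 13, 14 and 18. Gab1, a docking adaptor, read 179.6, 106.4 and 360.9, and it was the 1 gene of the list at least 2-fold different between passages 18 and 13, beside 3.96% of all detected genes. Between passages 18 and 14, 2 genes of the list were at least 2-fold higher, Gab1 and Vav2, and 1 was lower, Akt1, beside 11.4% of all detected genes in either direction. Mapkapk2 and Sh2d2a were not detected. Of the genes that restrain the receptors, 10 of 12 were detected: Ptprb (VE-PTP), a phosphatase of endothelium, read 398.1, 544.1 and 284.3, and the phosphatase gene Ptprj read 174.4, 93.09 and 365.4. Spry2, an inhibitor of the Ras pathway, read 429.8, 245.5 and 397.4, while Spry1 and Spry4 were not detected on all arrays.

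Receptor partners and endocytic adaptors were detected in 11 of 13 genes. Cdh5, the cadherin that holds Kdr at junctions, read 1705, 2018 and 1301 at passages 13, 14 and 18. Efnb2, the ephrin ligand needed for uptake of Kdr and Flt4, read 1587, 1168 and 2760, and Itgb3, an integrin partner of Kdr, read 3461, 2152 and 1747. Clec14a, a lectin of endothelium, read 563.0, 791.7 and 297.2. Itga9, a lymphatic integrin subunit, was below the floor on all arrays. The median log2 difference of the list for passage 18 minus 13 was -0.33, with 3 of 11 genes higher and 8 lower, beside 49.3% higher over all detected genes, and 0 of 11 were 2-fold different, beside 3.96%.

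Genes that VEGF is known to induce were detected in 13 of 19 cases and varied widely. Angpt2, a Tie2 ligand released by activated endothelium, read 436.2, 1163 and 301.1 at passages 13, 14 and 18, highest where Kdr was highest. That passage, 14, held the highest value of 37.0% of all detected probe sets. Apln, a peptide of sprouting endothelium, read 461.2, 686.7 and 190.9. Esm1, a marker of tip cells, read 406.6, 119.5 and 191.3, and F3, tissue factor, 154.4, 76.80 and 284.4. Rcan1, a target of calcineurin signalling, was steadier at 1192, 856.9 and 1215, and the early genes Egr2 and Nr4a1 were below the floor. The targets did not share an order of passages: their median log2 difference was -0.04 for passage 18 minus 13, with 5 of 13 higher, 1 of them at least 2-fold, and 8 lower, 4 of them at least 2-fold, beside 49.3% higher and 3.96% at least 2-fold in either direction over all detected genes.

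Of the hypoxia-inducible factors and targets 12 of 14 were detected. Epas1 (HIF-2α), the hypoxia factor typical of endothelium, read 978.6, 500.1 and 1810 at passages 13, 14 and 18, and Hif1a read 1539, 1102 and 1668. The oxygen sensor genes Egln1 and Egln3 read 801.9, 633.1 and 1267, and 370.1, 509.4 and 208.0. Car9, a hypoxia target, was below the floor on all arrays, as was Vegfa itself. In this list 0 of 12 genes differed 2-fold between passages 18 and 13, beside 3.96%.

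Transcription factors known to act on the receptor genes were detected in 13 of 14 cases. Nr2f2 (COUP-TFII), a venous and lymphatic factor, read 1427, 1226 and 1440 at passages 13, 14 and 18. Sox18 read 598.9, 1236 and 234.6, and the ETS factor genes Fli1 and Ets2 read 330.9, 939.4 and 193.1, and 806.4, 1537 and 534.3. These 3 were highest at passage 14, as Kdr and Flt1 were, beside 37.0% of all detected probe sets. The ETS factor genes Erg (2458, 1859 and 1472) and Ets1 (1118, 1019 and 924.7) were instead highest at passage 13 and lowest at 18. Foxc2, a factor of lymphatic valves, ran the other way, at 782.9, 266.8 and 954.8. Prox1, which specifies lymphatic identity, was above the floor at passage 13 only by its brightest probe set, at 73.37, 34.55 and 48.55.

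Genes of heparan sulfate, the chain that binds the longer VEGF forms and neuropilins, were detected in 11 of 14 cases. Of these, 9 of 11 were higher at passage 18 than at 13, beside 49.3% of all detected genes. The median log2 difference was 0.32, beside -0.002 over all detected genes. The syndecan genes Sdc1 and Sdc2 read 1183, 832.6 and 2508, and 718.4, 780.4 and 1975, at passages 13, 14 and 18, and were the 2 genes of the list over 2-fold higher at passage 18 than at 13, beside 3.96% of all detected genes at least 2-fold different in either direction. Ext1, which builds the chain, read 919.2, 658.4 and 1501, and Hs2st1, which sulfates it, 2307, 2217 and 2885. Gpc1 was below the floor on all arrays.

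**Figure D3:**
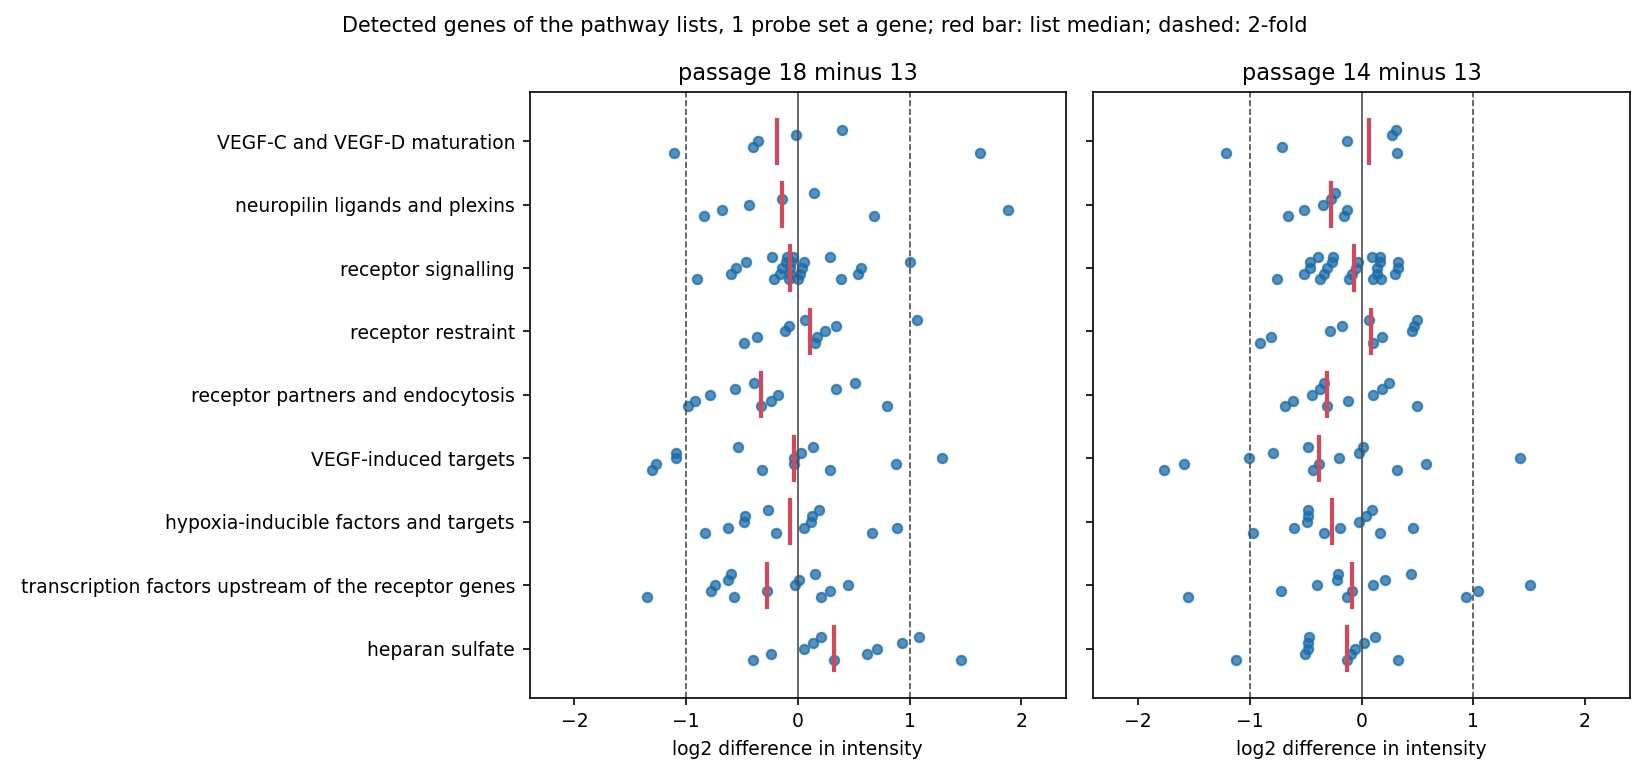
Log2 difference in intensity (horizontal axis) for each detected gene of 9 pathway lists (vertical axis), passage 18 minus 13 on the left and 14 minus 13 on the right. Each point is 1 gene, the red bar is the list median and the dashed lines mark 2-fold. The median of the signalling genes is -0.07 in both panels, the heparan sulfate median is 0.32 for passage 18 minus 13, and VEGF-induced targets spread to both sides.

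The lymphatic endothelial label was set against marker lists, with 1 probe set a gene, by which 8646 of 18193 genes on the array were detected. All 9 pan-endothelial genes were detected. Of 8 measured lymphatic markers 4 were detected, Pdpn, Lyve1, Flt4 and Foxc2, while Prox1 was above the floor on 1 array and Mmrn1, Reln and Itga9 on none. Lyve1 read 1375, 2929 and 162.9 at passages 13, 14 and 18. Of the blood endothelial list 4 of 8 were detected, Plvap, Efnb2, Cd34 and Selp, with Vwf, Dll4, Gja5 and Sox17 below the floor on all arrays. Plvap read 1315, 823.2 and 495.6, and Cd34 503.9, 1899 and 832.1. Of leukocyte genes 0 of 7 and of keratinocyte genes 1 of 6 were detected on all arrays. Of the leukocyte list, Cd68 (126.9, 243.9 and 58.15) and Cd53 (244.3, 121.4 and 64.64) exceeded the floor on the passage 13 and 14 arrays and Csf1r on that of passage 13, while Ptprc, Itgam, Adgre1 and Cd3e were below it on all arrays. The leukocyte sum was 455, 404 and 180 at passages 13, 14 and 18, lowest at passage 18 as were Flt4 and Nrp2. Of all detected probe sets 37.6% were lowest there, and the part of leukocytes in the values of Flt4 and Nrp2 was not tested.

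Marker levels of other cells differed between passages as well. The summed intensity of the 8 fibroblast markers was 3639, 2339 and 5423 at passages 13, 14 and 18, with 4 detected and with Pdgfra, Dcn and Lum below the floor on all arrays. That of the 8 mural and smooth muscle markers was 6195, 1095 and 7375, with Acta2, Tagln and Pdgfrb detected and the other 5 below the floor. Both sums were lowest at passage 14 and highest at passage 18, the order of Nrp1. Most of the mural sum at passage 18 came from Acta2 alone, which read 1467, 308 and 5289 at passages 13, 14 and 18. It was detected by 1 of its 3 probe sets. Pdgfrb, much dimmer, read 77.86, 66 and 206.3. Of all detected probe sets, 38.2% were lowest at passage 14, 37.5% highest at passage 18 and 37.6% lowest at passage 18. The detected genes Tagln (4535, 618.6 and 1756) and Thy1 of the fibroblast list (2496, 1414 and 1723) were instead highest at passage 13. The sum of the pan-endothelial list was 18511, 16799 and 12427, lowest at passage 18 as were Flt4 and Nrp2, and without Flt4 the lymphatic sum was 6902, 5210 and 4927. The part of these cell types or states in the differences of the VEGF genes was not tested.

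**Figure D4:**
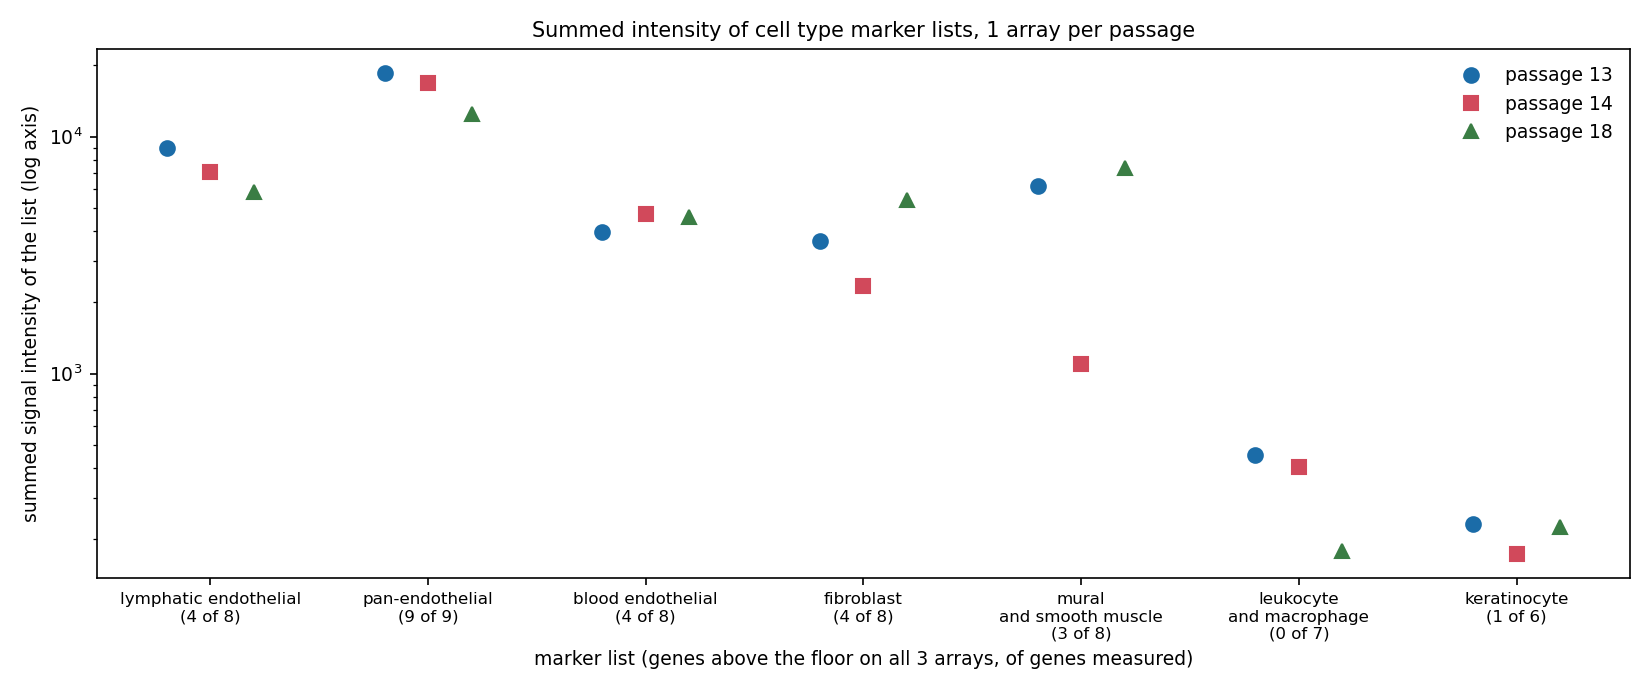
Summed signal intensity (vertical log axis) of 7 cell type marker lists (horizontal axis) on the arrays of passages 13, 14 and 18, with the number of genes detected of those measured under each name. The pan-endothelial sum is lowest at passage 18, and the fibroblast and mural sums are lowest at passage 14 and highest at passage 18. The mural sum at passage 18 is mostly Acta2.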

How the data were processed

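Amplified, biotin-labelled cDNA of 3 imLEC cultures was hybridised to 1 array each, per the labels' protocols. The authors deposited, for every array, a signal intensity for each probe set; the submitters' processing notes name MAS5, with its role not given in the sources used here. Array medians were 25.7, 26.0 and 26.3 at passages 13, 14 and 18, so the values were used as deposited and taken to log2, after leaving out 64 control probe sets. In the annotation 34958 probe sets have a single gene, 932 have several and 9211 carry no name here. Symbols follow RefSeq (GRCm38.p6), and all 10 genes described matched.

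For the trend, lmFit and eBayes of limma 3.58.1 (R 4.3.3, variance trend on) were run on all probe sets above the mean floor, with Benjamini-Hochberg adjustment, and the script was tested on simulated data. Lists use each gene's brightest probe set by mean log2. Some listed genes were not analysed here. Of the 42 floor genes, Apoa2 and Prm1 passed the call of detection. Genes named from the pathway lists were mostly drawn from the first 4 detected, the first 2 not detected and the 4 detected with the widest range. Not every gene that met this rule is named, and some outside it are. The genes and lists were chosen with earlier results of these data known. Nothing says that the cultures are independent isolates, and precision is limited by having 3 arrays.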

Additional observations from a re-analysis of the deposited data

How the results depend on the processing

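The count of 13 detected probe sets was 16 with the floor at the 90th percentile, 10 at the 99th, 6 with 1 probe set per gene, and between 13 and 16 when each culture was left out. Leaving out passage 18 gave the 16, since 3 probe sets of Flt1, Vegfb and Pgf were below the floor on that array alone. The count at least 2-fold different was 10, 5 and 15 with no filter on dim probe sets, against 6, 3 and 8, for passages 18 over 13, 14 over 13 and 18 over 14. With 1 probe set per gene it was 2 for 18 over 13 and 4 for 18 over 14, by construction over fewer probe sets, and with the floor at the 99th percentile it was 1 for 14 over 13, as the Flt1 probe sets fell below it. The median slope of -0.15 was -0.01 (-0.007995) with no filter, which adds 9 dim probe sets, and lay between -0.21 and -0.07 when each culture was left out. In those sets the slope ran from -0.35 to 1.11 for Kdr, from -0.37 to 1.08 for Flt1 and from -0.78 to 0.46 for Nrp1. It ran from -0.27 to 0.83 for Vegfb and from -0.67 to 0.20 for Vegfc. Its sign changed for these 5 once passage 18 was left out. With 2 arrays left, that slope is the log2 difference between passages 14 and 13 and no separate check. The Gapdh ratio of passage 18 was 19.4, and the part of RNA quality in the slopes was not tested. No probe set was called in limma under any of 8 alternatives, with 322 to 1882 at an unadjusted p under 0.05 and a lowest adjusted p of 0.626, for passage 18 against the mean of the others. Quantile normalization and median centring, applied to the 30 differences of the brightest probe sets after the data were seen, changed 0 signs. Adding 16 before the log also changed 0, but it cannot change the sign of a difference between 2 arrays. The 30 include differences of Vegfa, Vegfb, Vegfd and Pgf with values under the floor. The same 3 settings turned the direction of 0 of 24 slopes of brightest probe sets; the other settings with all cultures leave a probe set's slope as it is. No paired analysis was possible because there is 1 group. Values under the floor carry no order, which limits what can be said of Vegfa, Vegfb, Vegfd and Pgf.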
